A study of Mus musculus with 6 samples.

Results

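Cluster 1 regions at gene ends were the 2725 accessible regions that the deposited table names cluster 1 and whose midpoint lay within 1 kb of either annotated limit of a protein-coding gene. The table lists 69689 regions of the mm10 mouse genome in 9 clusters, 13030 of them in cluster 1 and 13201 of them at gene ends. The members thus made up 20.9% of cluster 1 and 20.6% of gene-end regions. Both the cluster name and the distance to a gene limit chose the members, so neither is a result here. The clusters were made by the authors from the same libraries, and every comparison between clusters below is a description without a test.

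The libraries came from R1 cells, a wild-type mouse embryonic stem cell line, and ACC-seq was used to mark accessible DNA, with adapters placed by the Tn5 transposase where chromatin is open. Fix_1,6-Hex cells (2 libraries) were exposed to 10% (w/v) 1,6-hexanediol for 30 s and then fixed for 10 min in 1% formaldehyde with hexanediol still present. Fix cells (2 libraries) had the same formaldehyde step alone, and Fresh cells (2 libraries) were not fixed. All cells grew on mouse embryonic fibroblast feeders with serum, LIF and 2i, feeders were taken out by replating, and tagmentation took 30 min at 55 °C in the fixed groups and at 37 °C in Fresh nuclei. The table carries 0 columns of values per library. No level, fold change or contrast between Fix_1,6-Hex, Fix and Fresh cells can therefore be given for any region, the depth is unknown, and the sources used here do not say which accessibility pattern the name cluster 1 stands for.

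Promoters lie around gene starts, and most promoters of broadly used genes sit in CpG islands, stretches rich in the dinucleotide CG that stay unmethylated and open. In embryonic stem cells many genes that later pattern the embryo also have CpG-island promoters, which are held at low output by Polycomb complexes while carrying the H3K4 methylation of active starts. 1,6-hexanediol is an alcohol that dissolves many weakly bound protein condensates, among them assemblies of transcription factors and Mediator at active genes.

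Promoter sequences of 8 developmental, signalling and axon guidance genes whose start lay inside a member region illustrate the base composition of some members. They do not span all members, and 2 promoters in other clusters stand beside them. The 250 bases before the annotated start are given 5′ to 3′ on the strand of the gene, from RefSeq on GRCm38.p6, and capitals mark each CpG. Hoxa5 and Hoxa11 encode homeobox factors that set position along the body axis. Wnt1 and Wnt3a encode secreted Wnt ligands, Fzd9 and Ror1 encode Wnt receptors, and Epha1 and Epha3 encode ephrin receptors that steer migrating axons and cells. Rpl4 and Rpl5 encode proteins of the large ribosomal subunit, and their starts lay in regions of cluster 3 and cluster 2.
Hoxa5: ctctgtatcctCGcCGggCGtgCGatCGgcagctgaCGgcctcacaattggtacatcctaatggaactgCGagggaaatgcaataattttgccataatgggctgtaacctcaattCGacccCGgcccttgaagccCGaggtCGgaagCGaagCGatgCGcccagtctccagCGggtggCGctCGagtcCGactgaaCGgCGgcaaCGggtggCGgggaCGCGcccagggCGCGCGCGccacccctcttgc
Hoxa11: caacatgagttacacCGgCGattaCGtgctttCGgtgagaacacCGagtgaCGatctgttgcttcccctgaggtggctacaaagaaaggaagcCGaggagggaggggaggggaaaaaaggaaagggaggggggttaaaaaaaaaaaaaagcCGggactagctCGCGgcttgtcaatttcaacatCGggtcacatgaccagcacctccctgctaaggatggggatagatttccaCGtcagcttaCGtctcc
Wnt1: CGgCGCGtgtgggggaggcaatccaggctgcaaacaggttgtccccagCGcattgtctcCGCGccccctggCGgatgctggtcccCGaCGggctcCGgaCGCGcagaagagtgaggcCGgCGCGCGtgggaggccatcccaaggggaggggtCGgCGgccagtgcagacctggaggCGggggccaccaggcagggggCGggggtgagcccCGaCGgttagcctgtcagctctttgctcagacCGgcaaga
Wnt3a: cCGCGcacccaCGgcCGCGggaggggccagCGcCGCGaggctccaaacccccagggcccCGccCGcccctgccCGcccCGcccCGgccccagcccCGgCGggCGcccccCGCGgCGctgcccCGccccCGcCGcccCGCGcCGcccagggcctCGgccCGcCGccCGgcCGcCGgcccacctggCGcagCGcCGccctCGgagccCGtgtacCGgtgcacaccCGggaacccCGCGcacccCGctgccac
Fzd9: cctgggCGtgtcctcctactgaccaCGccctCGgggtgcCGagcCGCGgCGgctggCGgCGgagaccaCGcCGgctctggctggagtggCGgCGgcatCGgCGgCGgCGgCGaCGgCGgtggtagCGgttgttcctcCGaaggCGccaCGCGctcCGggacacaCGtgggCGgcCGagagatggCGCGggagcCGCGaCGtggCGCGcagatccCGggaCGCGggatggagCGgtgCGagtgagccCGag
Ror1: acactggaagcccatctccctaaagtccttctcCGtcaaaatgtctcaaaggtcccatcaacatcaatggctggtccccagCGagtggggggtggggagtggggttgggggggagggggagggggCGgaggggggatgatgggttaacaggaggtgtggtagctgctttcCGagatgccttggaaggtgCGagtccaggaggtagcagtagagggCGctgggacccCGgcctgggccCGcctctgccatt
Epha1: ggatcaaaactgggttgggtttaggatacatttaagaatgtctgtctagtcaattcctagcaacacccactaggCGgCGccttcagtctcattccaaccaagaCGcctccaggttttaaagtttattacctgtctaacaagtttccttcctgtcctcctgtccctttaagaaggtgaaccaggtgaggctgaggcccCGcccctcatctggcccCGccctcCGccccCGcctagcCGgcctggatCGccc
Epha3: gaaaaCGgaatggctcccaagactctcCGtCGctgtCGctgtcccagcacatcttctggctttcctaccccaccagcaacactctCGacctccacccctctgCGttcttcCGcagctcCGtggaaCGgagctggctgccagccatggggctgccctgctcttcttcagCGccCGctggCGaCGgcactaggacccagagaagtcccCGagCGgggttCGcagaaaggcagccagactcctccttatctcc
Rpl4: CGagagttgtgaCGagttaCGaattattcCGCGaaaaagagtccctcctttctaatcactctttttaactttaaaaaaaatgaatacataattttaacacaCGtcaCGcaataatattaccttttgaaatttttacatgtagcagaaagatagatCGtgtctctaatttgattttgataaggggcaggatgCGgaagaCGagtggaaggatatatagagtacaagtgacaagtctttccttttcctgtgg
Rpl5: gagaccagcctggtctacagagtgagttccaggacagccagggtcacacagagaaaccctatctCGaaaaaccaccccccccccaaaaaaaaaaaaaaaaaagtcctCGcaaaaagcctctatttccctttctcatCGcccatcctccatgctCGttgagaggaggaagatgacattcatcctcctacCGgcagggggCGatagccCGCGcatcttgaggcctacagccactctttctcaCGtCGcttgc

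These stretches are at chr6:52204588-52204837 (- strand) for Hoxa5, chr6:52245811-52246060 (- strand) for Hoxa11, chr15:98789607-98789856 (+ strand) for Wnt1 and chr11:59290752-59291001 (- strand) for Wnt3a. Those of the receptors are at chr5:135251048-135251297 (- strand) for Fzd9, chr4:100095541-100095790 (+ strand) for Ror1, chr6:42373269-42373518 (- strand) for Epha1 and chr16:63864176-63864425 (- strand) for Epha3. The ribosomal promoters are at chr9:64173137-64173386 (+ strand) for Rpl4 and chr5:107900278-107900527 (+ strand) for Rpl5. Among the member promoters shown, Fzd9 held 42 CpGs and Wnt3a 41, against 8 in Ror1 and 9 in Epha1. GC content ran from 52.0% at Hoxa11 to 87.6% at Wnt3a in these member promoters, while Rpl5 had 52.8% and Rpl4 35.6%. Rpl4 and Rpl5 each held 10 CpGs, so the CpG number did not separate the 8 member promoters from the 2 others.

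The regions around these starts also differed in size. The member at Hoxa5 spans chr6:52203436-52206074, 2639 bp that also reach the far limit of Hoxa6. The member at Fzd9, a gene of 2110 bp, spans 2629 bp (chr5:135248912-135251540) and covers the whole annotated gene. At Epha3 the member was 358 bp wide (chr16:63863962-63864319), at Wnt1 697 bp and at Wnt3a 1327 bp. Gene limits and strands here are those of RefSeq on GRCm38.p6, the assembly called mm10 in the submitters' processing notes.

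Most members lay at the start of a gene and not at its far limit. Strand was known for the genes at 2039 members, and the nearest limit was the start in 1664 of them, or 81.6% ± 5.22 (SD over 19 autosomes, exact binomial 95% CI 79.9 to 83.3). In regions of other clusters at gene ends the share was 86.8% ± 2.27 (7353 of 8468). The far limit was nearest in 375 members and in 1115 of the other regions, and 686 members lay at genes whose strand is not in the promoter table. The SD describes the spread along the genome, and all intervals cover counting error alone. Among the clusters, the share at starts was 97.4% in clusters 2, 3 and 4 together, 94.2% in cluster 8, 71.5% in cluster 6 and 60.8% in cluster 9.

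Read by position, cluster 1 supplied 18.5% of the 9017 regions at gene starts and 25.2% of the 1490 regions at far limits. At far limits cluster 9 was the only cluster with a larger share, 27.3%. Away from gene ends cluster 1 held 18.2% ± 2.49 of regions, close to its 20.6% ± 2.22 at gene ends (SD over 19 autosomes each). On single autosomes its share of gene-end regions ran from 17.6% to 26.5%.

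Around the start, members were placed further into the gene than the other regions. Their midpoint lay a median of 195 bp downstream of the start (quartiles 6 and 454.5 bp, SD of autosome medians 57.6 bp), against 106 bp in other clusters (quartiles -32 and 284 bp, SD 16.9 bp). The midpoint was downstream in 1264 of 1664 members (76.0%) and in 5153 of 7353 other regions (70.1%). In cluster 8 the share downstream was close to that of the members, 75.5%, but the median offset was 129 bp. The median offset nearest to the members among the clusters compared was 155 bp in cluster 6 (quartiles -76 and 511.5 bp), with 68.5% of midpoints downstream. The start itself lay inside 84.7% of members (1410) and inside 91.5% of the other regions (6726). Where it did, members reached a median of 313.5 bp upstream and 694.5 bp downstream, and regions of other clusters 432 bp upstream and 660.5 bp downstream. The medians thus differed more on the upstream side. Upstream reach was also short in cluster 8 (355 bp) and cluster 9 (207 bp). At 500 bp upstream, 26.4% of members and 39.0% of other regions covered the position, and at 1000 bp downstream 33.5% of members and 24.2% of other regions did. In cluster 8 alone these values were 30.7% and 25.1%. No test of these differences was run.

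**Figure D1:**
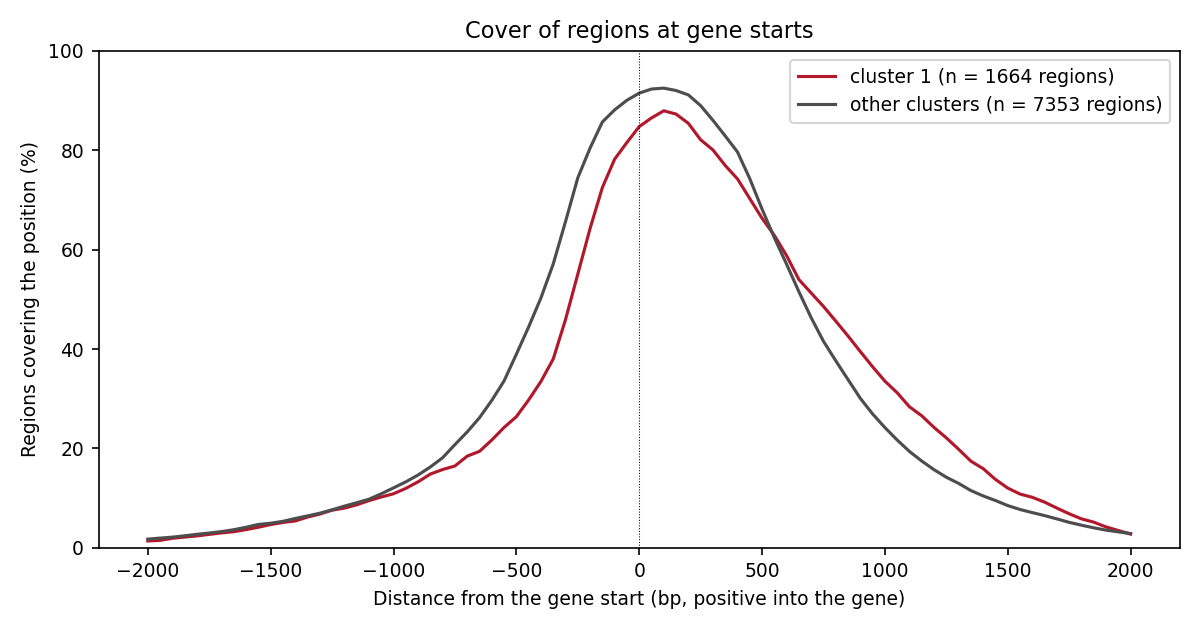
Share of regions (y axis, %) that cover each position around the gene start (x axis, bp, positive into the gene), for 1664 cluster 1 regions and 7353 regions of other clusters whose nearest gene limit was a start. The cluster 1 curve is lower upstream (26.4% against 39.0% at 500 bp) and higher far downstream (33.5% against 24.2% at 1000 bp).

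Members spanned a wide range of widths. They ran from 200 to 5937 bp with a median of 930 bp (quartiles 515 and 1597 bp, SD of autosome medians 106.5 bp), while the other gene-end regions had a median of 1056 bp (quartiles 699 and 1545.25 bp, SD 30.1 bp). Members had the larger median on 4 of 19 autosomes. Cluster 1 regions away from gene ends had a median of 459 bp. Regions of 2 kb or more made up 14.4% of members (393) and 13.3% of the other gene-end regions (1390), against 4.93% of cluster 1 regions away from gene ends.

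Width and position went together among the members. Members at starts had a median of 1040 bp and members at far limits 496 bp, and the other clusters showed the same order with 1116 and 439 bp. Of the strand-known members 200 to 399 bp wide, 53.1% were at a start, and the share was 69.5% at 400 to 599 bp, 88.2% at 600 to 999 bp, 92.1% at 1000 to 1999 bp and 87.2% at 2000 bp or more. Cluster 1 supplied the largest share of gene-end regions in the class of 400 to 599 bp, 547 of 1428 regions or 38.3%. Its share was 20.8% at 200 to 399 bp, 17.9% at 600 to 999 bp, 17.0% at 1000 to 1999 bp and 22.0% at 2000 bp or more.

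**Figure D2:**
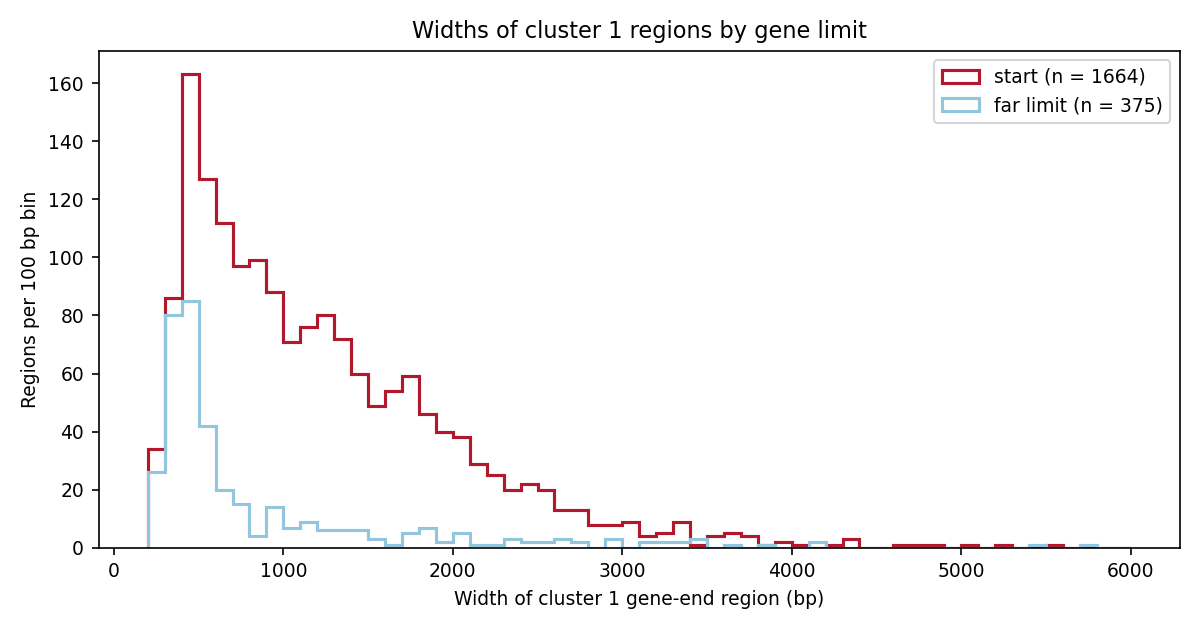
Number of cluster 1 regions in each 100 bp class of width (y axis) against width in bp (x axis), for 1664 regions at starts and 375 at far limits. Both distributions peak at narrow widths, and the regions at starts have the longer shoulder above 1000 bp (medians 1040 and 496 bp).

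The 10 widest members were 4735 to 5937 bp wide. Egr3, an early growth response transcription factor, had the widest, 5937 bp at chr14:70074409-70080345. It was followed by 5917 bp at the homeobox gene Tlx2. Then came a region of 5745 bp, with its midpoint near the far limits of both the ribosomal gene Rpl10a and Tead3, a partner factor of the Hippo pathway. That region covered the whole of Rpl10a, its start included. Gad1, which makes the transmitter GABA, had 5522 bp at its start (chr2:70558101-70563622). Next were Ier5l with 5464 bp, Samd4 with 5273 bp and Wdr5, a shared subunit of the H3K4 methyltransferases, with 5046 bp. The POU factor gene Pou3f3 had 4876 bp, Fst, which encodes the activin antagonist follistatin, had 4872 bp, and Adm, which encodes the peptide adrenomedullin, had 4735 bp.

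Members touched 2876 protein-coding genes, which is 21.6% of the 13317 genes with any gene-end region. By limit, 17.5% of the 10069 genes with a region at the start and 25.0% of the 1969 genes with a region at the far limit had a cluster 1 region there. These shares are the background for the gene groups that follow. A single member region was found at 2799 genes and 2 regions at 77 genes. At 2321 genes all gene-end regions were cluster 1, and 555 genes also had a region of another cluster. In turn 2501 members lay at 1 gene, 220 at 2 genes and 4 at 3 or more, so genes that share a limit share a region. The genes were about as long as the rest, with a median of 22527.5 bp against 22265 bp for other genes with a gene-end region, and this order turned with a 2.5 kb window (20229 against 22455 bp).

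Developmental transcription factors, which direct cells to their lineage in the embryo, had a cluster 1 region at 36 of 73 genes (49.3%, CI 37.4 to 61.3, background 21.6%). The 36 genes held 39 separate regions, with a cluster 1 region at the start in 20 of the 49 genes with a start region (40.8%, background 17.5%). Among the Hox genes, Hoxa5 and Hoxa11 were joined by Hoxb4, whose member of 818 bp covered the start, and Hoxb9, with 2904 bp. Other members were at En1, a factor of the midbrain border (2108 bp), Olig2, which specifies motor neurons and oligodendrocytes (2559 bp), and Sox1, an early neural factor (2798 bp). Hand2, Six2 and Foxc1, which act in heart, kidney and mesoderm, had members of 1464, 1799 and 2353 bp at their starts. Foxc1 had a further member of 1487 bp beyond its far limit. Hoxc10 was in cluster 8 and Hoxd8 in cluster 9. Cluster 8 regions were at 22 of the 73 genes (background 24.1%) and cluster 9 regions at 11 (background 10.4%). The list was one of those that had already stood out in these data, so its count is no independent evidence.

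At some of these genes cluster 1 marked the far limit while the start belonged to another cluster. Lhx2, a forebrain homeobox gene, had a member of 345 bp near its far limit, while its start lay in a 1774 bp region of cluster 9. Irx3 had a member of 717 bp beyond its far limit, and its start region of 2784 bp was cluster 8. At Dlx2, a gene of forebrain interneurons, both were cluster 1, with 3649 bp at the start and 572 bp at the far limit.

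Signalling genes showed similar shares. Of the morphogen ligands, 19 of 47 had a member (40.4%), among them Wnt1 and Wnt3a. Fgf5, a ligand switched on as cells leave the naive state, had a member of 777 bp over its start (chr5:98253968-98254744). Inhbb, which encodes an activin subunit, had one of 3626 bp, and Bmp6 one of 2638 bp. Of the receptors and antagonists, 23 of 56 had a member (41.1%), and 16 of 40 had it at the start (40.0%, background 17.5%). These included the Hedgehog receptor Ptch1 (1290 bp), the Fgf receptor Fgfr3 (3513 bp), the TGF-beta receptor Tgfbr2 (1627 bp), and the secreted Wnt antagonists Frzb (2151 bp) and Sfrp2 (1205 bp). Wnt3 and Wnt4 were in cluster 9, and the Wnt receptors Fzd1 and Fzd2 in cluster 8. Cluster 9 regions were at 10 of the 47 ligand genes and at 3 of the 56 receptor and antagonist genes (background 10.4%).

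Axon guidance genes had a member in 13 of 39 cases (33.3%, CI 19.1 to 50.2, background 21.6%), at the start in 11 of 31 (35.5%). The interval holds the background. Efna1 and Efna4 encode membrane-bound ephrin ligands. They had members of 3001 and 4389 bp at their starts, and Slit3, which encodes a secreted repellent, had 1330 bp at its start and 517 bp near its far limit. Nrp1, a receptor for semaphorins, had 2785 bp. Epha2 carried cluster 1 at the far limit alone, 337 bp, with a cluster 6 region of 1528 bp at its start, and Epha4 was in cluster 8.

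Genes for neuronal channels and synapses had a member in 19 of 46 cases (41.3%), at the start in 9 of 22 (40.9%). The calcium channel genes Cacna1b and Cacna2d1 had members of 1703 and 2040 bp, the pacemaker channel gene Hcn2 2033 bp and the kinase gene Camk2b 3901 bp. Grin1, which encodes the common subunit of NMDA receptors, had 3196 bp at its far limit. In the wider family of potassium channel genes, 32 of 56 had a member (57.1%, CI 43.2 to 70.3), in 35 regions, and 16 of 36 had it at the start (44.4%). Kcnd3 had 2564 bp at its start, Kcng3 had 2460 bp and Kcnh8 had 1906 bp.

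Pluripotency genes fell on both sides of the background. None of the 22 naive pluripotency genes with a gene-end region had a cluster 1 region there, where an exact binomial interval reaches 15.4%. Nanog had a cluster 6 region of 4158 bp at its start, and Pou5f1 had one of cluster 4 with 7835 bp. With a 2.5 kb window 5 of 31 naive genes had a cluster 1 region (16.1%, background 27.2%). Of the genes of the formative and primed states, which follow the naive state, 8 of 15 had a member (53.3%), with 4 of 7 at the start. Beside Fgf5 these were Pou3f1 with 2553 bp, Zic2 with 2235 bp, Zic5 with 2123 bp, Foxd3 with 2416 bp, Sox4 with 1745 bp, Grhl2 with 2137 bp and Tcf15 with 2124 bp, while Dnmt3b was in cluster 8. Fgf5 and Foxd3 stood in an earlier list too.

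Chromatin regulators and transcription machinery gave lower shares than the developmental lists. Polycomb and H3K4 methylation complexes had a member at 12 of 38 genes (31.6%, CI 17.5 to 48.65, which holds the background of 21.6%). They included Bmi1 (1333 bp) and Cbx2 (1466 bp) of Polycomb complex PRC1, Phf19 (1678 bp) and Epop (4575 bp) of PRC2, and the methyltransferase gene Kmt2c (2643 bp). The catalytic PRC2 genes Ezh1 and Ezh2 had start regions of clusters 8 and 3. Proteins linked to condensates and transcription had a member at 4 of 30 genes (13.3%), at the start in 2 of 26. Among them were the acetyltransferase gene Crebbp (1781 bp), Ewsr1 (3214 bp) and the Mediator kinase gene Cdk8. At Cdk8 the member was 243 bp wide and lay beyond the far limit, and the start was in cluster 4. The Mediator genes Med1 and Med12 were in clusters 2 and 8.

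Housekeeping genes had few members known to lie at their starts. Of 48 cytoplasmic ribosomal protein genes, 10 had a member (20.8%), close to the background, with 6 at the far limit and 3 at the start (9.68% of 31 genes with a start region, background 17.5%). The limit was assigned by midpoint, and the member counted at the far limit of Rpl10a covered its start too. Rpl10 and Rpl13 had cluster 1 beyond their far limits and clusters 2 and 4 at their starts. The start member of Rpl19 was also the start region of Cacnb1, a calcium channel gene on the other strand. It began downstream of the annotated start of Rpl19. Proteasome genes had a member in 1 of 31 cases (3.23%, CI up to 16.7%), Psmb5, a catalytic subunit, with 725 bp. With a 2.5 kb window the count was 6 of 31 (19.4%, background 27.2%). Cell cycle and replication genes had 7 of 37 (18.9%), with 1 at the start, Cdt1 (3328 bp), 3 at the far limit and 3 with unknown strand, Ccnd2 (2736 bp), Cdkn1c (2584 bp) and Rb1 (1596 bp). The kinase genes Cdk1 and Cdk4 and the helicase gene Mcm2 had members of 478, 333 and 590 bp near their far limits, and Cdk1 and Cdk4 had start regions of clusters 3 and 4.

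**Figure D3:**
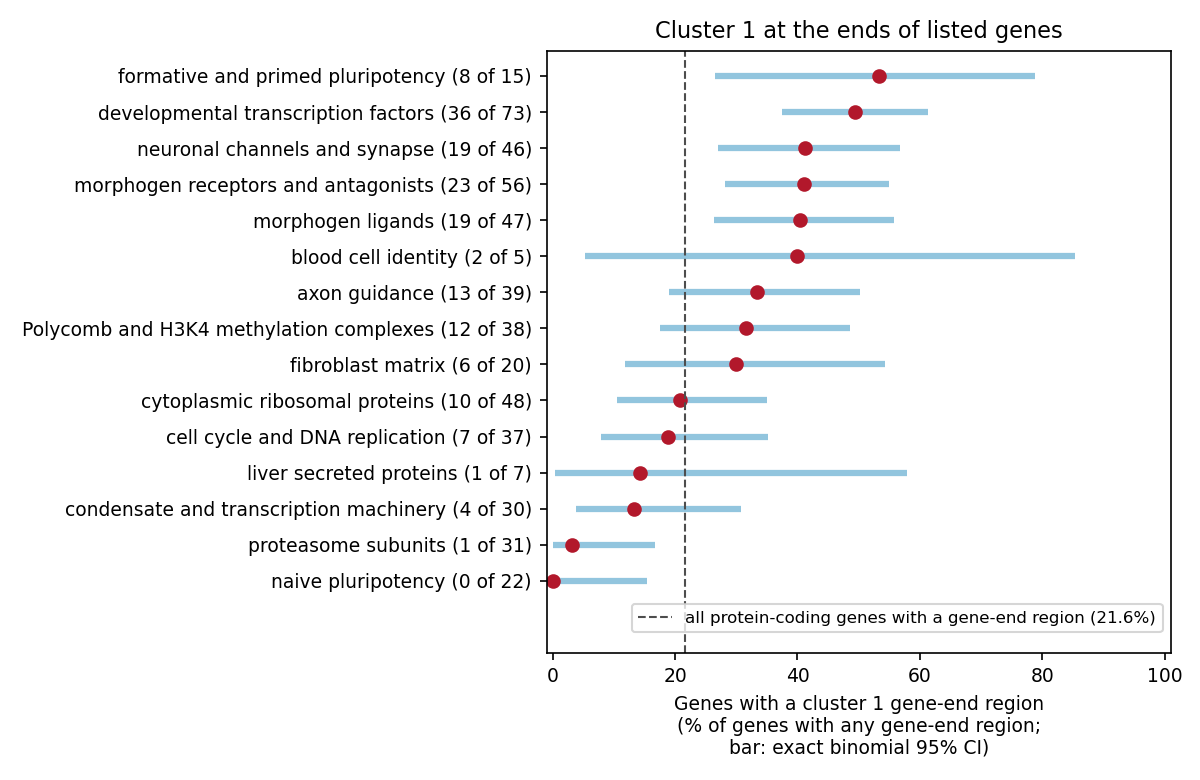
Share of genes with a cluster 1 gene-end region (x axis, % of the genes with any gene-end region) for 15 gene lists (y axis, with counts), with exact binomial 95% intervals as bars and the background of 21.6% as a dashed line. Developmental factors (49.3%), receptors and antagonists (41.1%) and neuronal genes (41.3%) lie above the line, and proteasome (3.23%) and naive genes (0 of 22) below it.

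Families defined by gene symbol spread over a similar range. Nkx homeobox genes had a member in 8 of 12 cases (66.7%), Dlx genes in 4 of 5, Wnt genes in 6 of 12 and Fgf genes in 7 of 15. Eph receptors and ephrins had 9 of 19 (47.4%), Hox genes 14 of 30 (46.7%), forkhead Fox genes 17 of 37 (45.9%) and calcium channels 8 of 18 (44.4%). These families overlap the lists, so their counts are not separate from those above. The intervals for Wnt (21.1 to 78.9), Fgf (21.3 to 73.4) and calcium channel genes (21.5 to 69.2) hold the background of 21.6%. Only those of Nkx, Dlx, Eph and ephrin, Hox, Fox and potassium channel genes lay above it. Only those of Zfp, mitochondrial ribosomal and histone genes lay below it. The intervals of all other families hold it, among them collagens (19.7 to 61.5) and protocadherins (16.35 to 48.1). Collagens had 9 of 23 (39.1%), protocadherins 11 of 36 (30.6%) and solute carriers 59 of 259 (22.8%). Some of these families also stood high in other clusters. A cluster 9 region was at 9 of 30 Hox, 4 of 12 Wnt and 8 of 23 collagen genes (background 10.4%). Such a region was at 4 of 18 calcium channel, 1 of 12 Nkx, 1 of 5 Dlx and 2 of 15 Fgf genes. It was at 1 of 19 Eph and ephrin genes and at 2 of 37 Fox genes. Keratins had one at 7 of 12 genes. Protocadherins had a cluster 6 region at 22 of 36 genes (background 6.71%), and Eph and ephrin genes at 4 of 19. Cluster 8 regions (background 24.1%) were at 7 of 16 Sox, 6 of 13 ADAMTS and 7 of 19 semaphorin and plexin genes. They were also at 3 of 5 Irx, 4 of 12 Nkx and 10 of 37 Fox genes. Lower shares were those of Hox (4 of 30), Wnt (1 of 12), Fgf (2 of 15) and collagen genes (2 of 23). Eph and ephrin genes had 3 of 19 and calcium channel genes 3 of 18. Krueppel-like genes, among them several factors of the naive state, had 2 of 13. At the low end were zinc finger Zfp genes with 46 of 309 (14.9%), eukaryotic initiation factors with 5 of 49 (10.2%), complex I subunits with 3 of 36 (8.33%), mitochondrial ribosomal proteins with 5 of 73 (6.85%) and histone genes with 2 of 46, which shared 1 region. Olfactory receptors, a family of 1106 genes, had a gene-end region at 16 genes and a member at 6 (37.5%), but with a 2.5 kb window 7 of 34 (20.6%), below the background of 27.2%. Among the smaller homeobox and other factor families, members were at 3 of 5 Irx, 3 of 6 Lhx and Isl, 2 of 6 Pax, 5 of 16 Sox, 2 of 7 Tbx, 1 of 2 Gata and 2 of 5 Zic genes. Frizzled genes had 3 of 9, Bmp genes 2 of 7, semaphorins and plexins 6 of 19, ADAM proteases 6 of 13, ADAMTS proteases 5 of 13 and sodium channels 3 of 8. Sox genes and semaphorins and plexins fell below the background of 18.7% with a 500 bp window (18.2% and 16.7%). Keratins fell below with a 2.5 kb window (20.0%) or any overlap (21.4%, background 23.6%), solute carriers with any overlap (23.5%), and ubiquitin E2 enzymes among regions of 500 bp or more (15.6%, background 18.9%). The others were ubiquitin E2 enzymes with 8 of 33, chemokines with 4 of 10, keratins with 3 of 12, interleukins with 2 of 11 and vomeronasal receptors with 0 of 4. By symbol, cytoplasmic ribosomal proteins had 12 of 74 and proteasome genes 4 of 38.

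**Figure D4:**
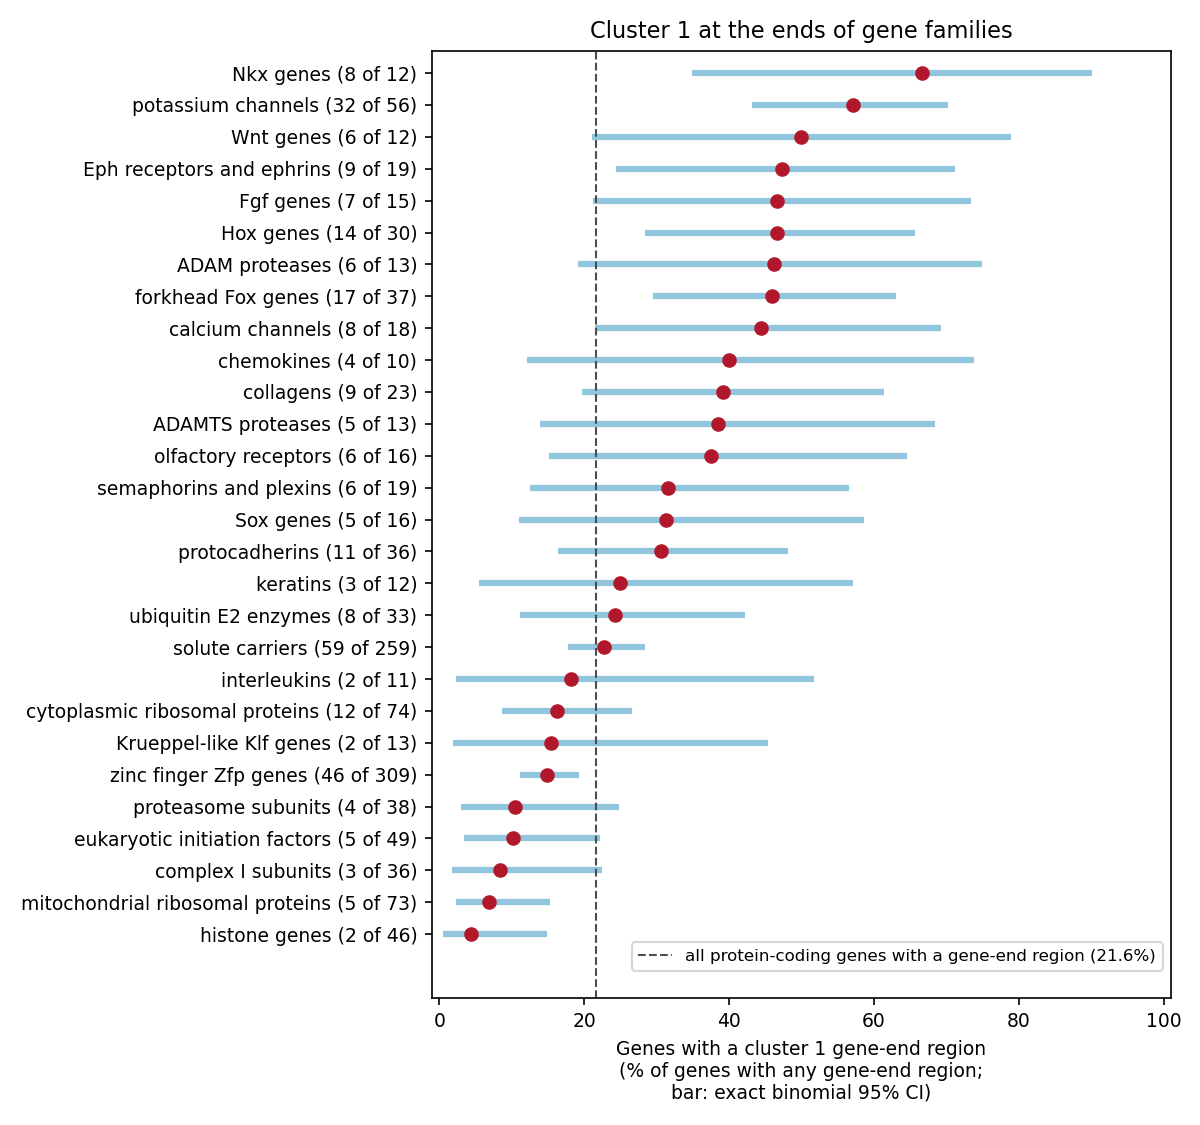
Share of genes with a cluster 1 gene-end region (x axis, % of the genes with any gene-end region) for the gene families with 10 or more such genes (y axis, with counts), with exact binomial 95% intervals as bars and the background of 21.6% as a dashed line. Nkx genes (66.7%) and potassium channels (57.1%) are at the top, and mitochondrial ribosomal proteins (6.85%) and histone genes (4.35%) at the bottom.

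Promoter composition was compared over the 300 bases from 250 before to 50 after the start, for 15751 protein-coding genes with a promoter within 1 kb of the gene limit. Of these, 1656 promoters had a cluster 1 region at the start, 7868 had a region of other clusters and 6227 had none. The ratio of CpGs observed to CpGs expected from base content had a median of 0.736 in cluster 1 (quartiles 0.530 and 0.910, SD of autosome medians 0.0379), against 0.777 in other clusters (0.613 and 0.915, SD 0.0232) and 0.182 with no region. Median GC content was 63.7% in cluster 1, 61.3% in other clusters and 46.7% with no region. The quartiles lay wider apart in cluster 1 than in the other clusters pooled, and wider still in cluster 9 (0.352 and 0.822), cluster 7 (0.272 and 0.706) and cluster 6 (0.431 and 0.818). Promoters with 70% GC or more made up 27.4% of cluster 1 (454) and 16.2% of other clusters (1273). The share was 22.7% in cluster 9, 19.6% in cluster 8 and 6.25% to 17.6% in the rest. CpG-rich promoters, with a ratio of 0.6 or more and GC of 50% or more, made up 65.3% in cluster 1 and 72.8% in other clusters. By cluster the share was higher in clusters 2 (85.8%), 3 (82.3%), 4 (82.0%) and 8 (73.8%). It was lower in clusters 5 (63.2%), 6 (49.0%), 9 (46.6%) and 7 (30.7%). At the other end, 14.9% of cluster 1 promoters and 9.28% of those in other clusters had a ratio below 0.4. The share was 42.6% in cluster 7, 30.6% in cluster 9, 22.3% in cluster 6 and 11.6% in cluster 5. Cluster 8 had 7.46%, and clusters 2, 3 and 4 had 2.15%, 2.98% and 3.49%.

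Width followed CpG content within the members. Median width was 616.5 bp at the 246 member starts with a ratio below 0.4, 739 bp at 290 starts from 0.4 to below 0.6, 1062 bp at 441 starts from 0.6 to below 0.8, and 1384 bp at 679 starts of 0.8 or more. Among the sequences shown, the order does not hold gene by gene. Ror1, with a ratio of 0.384 over 300 bases, had a member of 2208 bp, and Epha3, with 0.676, had 358 bp.

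Short motifs were counted in the same promoters on both strands. The motifs were GGGCGG (bound by Sp factors), CCACCC (Klf factors), CCAAT (NF-Y), CCGGAAG (ETS factors), CACGTG (Myc and USF), TATAAA (TBP) and TGANTCA (AP-1), and none of them contains another. CCAAT was present in 28.8% of cluster 1 promoters (477 of 1656, CI 26.6 to 31.1), in 42.0% of those in other clusters (3308 of 7868, CI 40.9 to 43.1) and in 39.4% of all promoters. CCGGAAG was present in 12.6% of cluster 1 promoters, 19.2% of those in other clusters and 12.0% of all. Both shares were lower in cluster 1 than at the other accessible starts pooled, and the differences were not tested. By cluster, CCAAT was in 57.7% of promoters in cluster 2, 33.0% in cluster 8 and 30.9% in cluster 9. CCGGAAG was in 24.6% in cluster 3 and 19.6% in cluster 8, but in 12.4% in cluster 6, 6.12% in cluster 9 and 5.07% in cluster 7, which are the 3 clusters below cluster 1.

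Differences in percentage points were smaller for the remaining motifs. GGGCGG was in 67.6% of cluster 1 promoters, 68.1% of those in other clusters and 46.7% of all. CCACCC was in 42.1% in cluster 1, 37.1% in other clusters and 32.6% of all, CACGTG in 9.06%, 10.8% and 8.01%, TATAAA in 6.34%, 6.62% and 13.7%, and TGANTCA in 5.19%, 4.04% and 7.00%. By cluster, CCACCC was in 44.4% in cluster 9, above cluster 1, and in 34.1% to 38.4% in the rest. TGANTCA was in 7.19%, 7.1%, 6.40% and 5.80% in clusters 9, 7, 6 and 5. In clusters 2, 3, 4 and 8 it was in 2.63% to 3.63%. The order for GGGCGG turned when the start had to lie inside the region (70.8% in cluster 1 against 69.8%), and that for TATAAA when the gene strand alone was read (4.29% against 4.07%). Base composition moves with these counts, so they were repeated within CpG-rich promoters. There CCAAT was in 26.4% of cluster 1 promoters (286 of 1082) and 40.4% of those in other clusters (2313 of 5729), and CCGGAAG in 14.1% and 22.3%. Clusters 2, 3 and 4, which made up 3223 of the 5729, had CCAAT in 47.35% and CCGGAAG in 24.2%. Of the rarer motifs, the CREB site TGACGTCA was in 3.08% of cluster 1 promoters and 3.50% of those in other clusters, and the POU octamer ATTTGCAT in 20 of 1656 and 126 of 7868. The NRF1 site was in 1.39% and 2.39%, and the palindrome known from housekeeping promoters in 1.15% and 1.12%, an order that turned on the autosomes alone (1.01% and 1.12%). A match is a run of letters in this window and says nothing of binding. Of the promoters shown, Hoxa5 holds CCAAT and CCACCC, and Fzd9 holds GGGCGG and CACGTG.

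**Figure D5:**
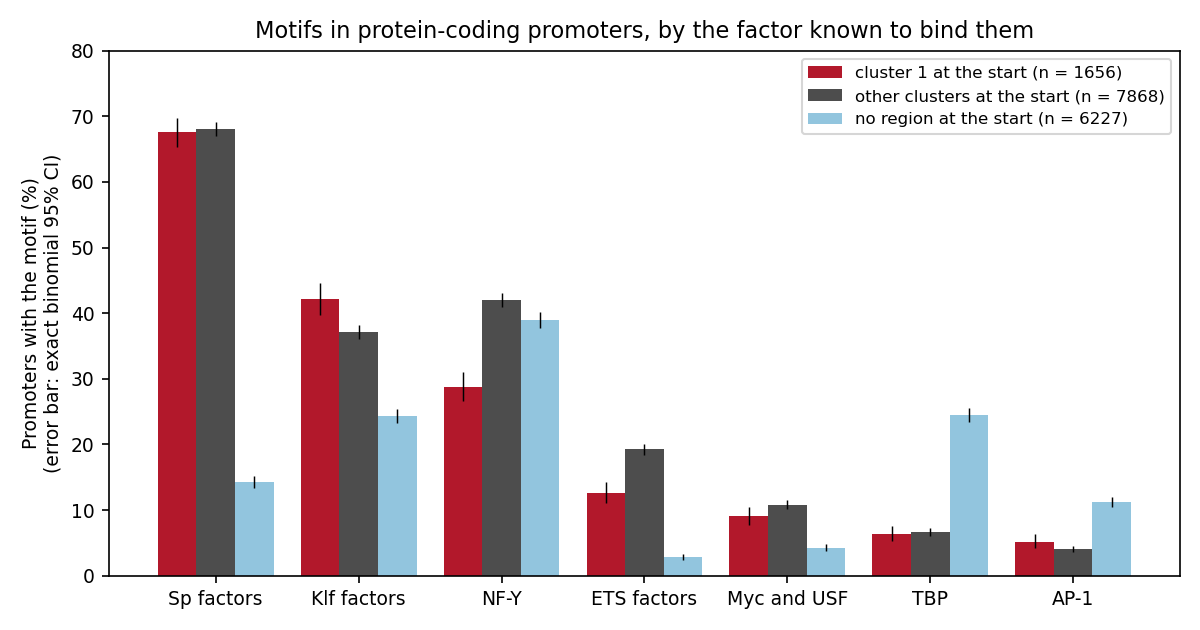
Share of promoters (y axis, %) that hold each of 7 motifs, named by the factor known to bind it (x axis), for starts with a cluster 1 region, starts with a region of other clusters and starts with none, with exact binomial 95% intervals. The NF-Y motif is in 28.8% of cluster 1 promoters against 42.0% in other clusters, and the ETS motif in 12.6% against 19.2%.

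Members and other gene-end regions had neighbours at similar shares. Another accessible region lay within 10 kb of 1785 members (65.5%) and of 6959 other gene-end regions (66.4%). The nearest was cluster 1 for 26.7% of these members (476), for 22.3% of the other gene-end regions (1553), for 26.6% of gene-end regions of cluster 9 (236 of 886) and for 23.5% of cluster 1 regions away from gene ends. The midpoint lay inside a gene in 74.6% of members and 72.4% of other gene-end regions. A start of a long non-coding RNA gene lay inside 6.61% of members (180) and 7.30% of the others (765).

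Just inside the 1 kb limit, members at Cga, Ptms and Arhgap6 had their midpoints 1000 bp from the gene limit and widths of 2031, 2967 and 795 bp. The nearest cluster 1 regions outside it lay at 1001, 1001 and 1003 bp and were 2384, 1513 and 1004 bp wide, the last at Klhl23. The widths on the 2 sides of the limit overlapped.

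Cell type markers were read by gene-end regions alone, since no levels are given. Any such region was present at 13317 of 21883 protein-coding genes and at 22 of 32 genes of the naive list. Having one therefore says little about which cells were present. Of 10 naive stem cell markers, 9 had a gene-end region, with the exception of Dppa3, and 0 of them were cluster 1. Of 10 feeder fibroblast markers, 5 had a gene-end region and 3 of these were cluster 1, among them Col1a1 (1890 bp) and Thy1 (562 bp). Col1a2 had a cluster 9 region at its start, and Col3a1, Postn, Dcn, Lum and Prrx1 had no gene-end region. In the fibroblast matrix list 6 of 20 genes had a member (30.0%, CI 11.9 to 54.3, background 21.6%). The strand is unknown for 5 of these 6, so their position at start or far limit was not determined. The part of feeder cells in cluster 1 was not tested. The lists for cells not in the culture were small, with a member at 2 of 5 blood cell genes and at 1 of 7 genes for liver secreted proteins.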

How the data were processed

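The deposited table gives, for each region, a position and 1 of 9 cluster names, both as deposited by the authors. It holds no counts or signal. Per the submitters' processing notes, the tools were SAMtools 1.6, Picard, Bowtie2 2.3.3.1 and cutadapt 1.18, and the build was mm10. The steps of region calling, merging and clustering are not given in the sources used here. Region calling decides widths, and merging and clustering decide which regions carry the name cluster 1. Depth per library and the precision it gives are unknown.

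Table positions start at 0 and were counted from 1. Regions were placed by midpoint against 21883 protein-coding genes of the RefSeq table for GRCm38.p6, and 17491 of them have a strand in the RefSeq promoter table. The members and the 15 gene lists, 39 symbol families and 11 motifs were chosen with earlier results of these data known. All 656 entries matched by symbol. Values were described by counts, shares with exact binomial (Clopper-Pearson) 95% intervals, medians and the SD over 19 autosomes. Regions, genes and libraries were not treated as replicates, and no p-value was computed. Text names came from a rule: the first 4 genes of a list with a member, the first 2 with other clusters alone, up to 3 per family, and the 10 widest members. Further named genes were picked after their values were seen. Some results at single genes or families are left out.

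Alternatives were autosomes only, any overlap, a 500 bp or 2.5 kb window, all annotated genes, regions of 500 bp or more, 1 region per 50 kb, the nearest region only, the start inside the region, and 1 strand for motifs. Placing regions at gene limits and finding a motif were tested on simulated data, and the other steps were not. Tools were matplotlib 3.10.9, SciPy 1.17.1, pandas 2.3.3 and numpy 2.4.6 under Python 3.11.15.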

Additional observations from a re-analysis of the deposited data

How the results depend on the processing

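No paired analysis was possible because the table has no values per library, and for the same reason the planned contrasts between treatments and the settings that leave out a replicate were not run. Depth is unknown, and so is its limit on these values. The share of gene-end regions in cluster 1, 20.6%, was 21.96% with 1 region per 50 kb, 21.49% with any overlap, 19.07% for regions of 500 bp or more, 21.92% in a 2.5 kb window and 18.98% in a 500 bp window. The share of members at a start, 81.6%, was 78.2%, 88.24%, 70.95% and 86.87% under the last 4 of these, below the other clusters each time. The median width fell to 804 bp in the 2.5 kb window, against 959 bp in other clusters. The share with a cluster 1 neighbour was 23.44% within 50 kb. The share inside a gene was 71.77% in the 2.5 kb window and 72.28% in the 500 bp window, where the other clusters had 72.52% and the order turned. Developmental factors ranged from 45.65% to 56.25% and stayed above the background under each setting run. Of 90 list values 5 changed side of the background, in the ribosomal, liver and blood lists, as did 7 of 234 family values and 3 of 33 motif values. The causes were not tested.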

Other observations

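Gene symbols that share their leading letters were also counted, a grouping chosen after values were seen and given here as counts only. There were 159 such groups with 10 or more genes that had a gene-end region. POU factor genes had a cluster 1 region at 9 of 11 genes (81.8%), among them Pou2f2, Pou2f3, Pou3f1, Pou3f3, Pou4f1 and Pou4f2. Matrix metalloproteinase genes (Mmp) had 6 of 10, cadherin genes (Cdh) 7 of 13, and phosphodiesterase genes (Pde) 9 of 19. The background was 21.6%. In 10 groups no gene had one, among them Polr subunits of RNA polymerases (0 of 27), Mettl methyltransferases (0 of 19), Ints subunits of Integrator (0 of 15) and Lsm RNA-binding proteins (0 of 12).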
